A study of Mus musculus with 14 samples.

Results

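The integrin and laminin genes are the 37 of the 24537 gene symbols listed in the deposited tables that match the naming pattern of the integrin alpha chains (18 genes), the integrin beta chains (8 genes) and the laminin chains (11 genes). They were followed in sorted mouse cells of 2 kinds. Skin regulatory T (Treg) cells were collected 1 day after hair depilation from GR KO mice (Foxp3YFP-Cre GRfl/fl, 5 libraries) and from GR WT mice (3 libraries). Hair follicle stem cells (HFSC), gated as CD34+ and ITGA6high, were collected 4 days after depilation from mice of the same GR KO genotype (3 libraries) and from GR WT mice (3 libraries). Foxp3 is the lineage factor of Treg cells, so the floxed glucocorticoid receptor gene is deleted in Treg cells and the HFSC of GR KO mice are not the targeted cells. All mice were depilated. The labels do not say whether the WT mice carried the Cre or a floxed allele, nor whether separate mice gave the libraries. The spread behind every p-value is therefore that between libraries, and may be technical in part.

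Integrins are heterodimers of an alpha and a beta chain that tie cells to matrix or to other cells. Laminins are trimers of an alpha, a beta and a gamma chain and form the sheet-like network of basement membranes. In skin, basal keratinocytes and follicle stem cells rest on a basement membrane rich in laminin-332 and laminin-511, which they hold through integrins alpha6beta4 and alpha3beta1. T cells use another set: alphaLbeta2 binds ICAM1 on other cells, alphaEbeta7 binds E-cadherin on epithelium, and alphavbeta8 releases active transforming growth factor beta (TGF-beta) from its latent form, a property known from Treg cells.

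Values are TPM, read tags scaled by transcript length and library total, so levels can be set beside each other between genes. Recovered tags numbered between 9167605 and 14461504 in each Treg library, and between 4503904 and 7989730 in each HFSC library, where GR WT replicate 1 was the shallowest. Nr3c1, which encodes the receptor, stood at 106, 125, 106, 171 and 139 TPM in Treg GR KO libraries, against 171, 233 and 229.7 TPM in Treg GR WT libraries. GR KO replicate 4 lay just above GR WT replicate 1, so the groups overlapped, and the gene did not pass (log2 -0.71, SE 0.17, limma adjusted p = 0.0722). A value for the whole gene does not resolve the deleted exons, so it checks the labels only in part. In HFSC, Nr3c1 was at 35.7 to 48.5 TPM in GR KO and 34.8 to 48.9 TPM in GR WT. Foxp3 was at 137 to 281 TPM in Treg cells and at most 0.357 TPM in HFSC, and the bulge keratin gene Krt15 was at 3562 to 7252 TPM in HFSC libraries. Treg libraries also held transcripts of other skin cells. The sums of macrophage, neutrophil and basal keratinocyte genes were lower in every GR KO than in every GR WT library and are given beside the results they move with. So were those of 7 bulge genes, Itga6 among them (38.2 to 65.2 TPM in GR KO and 175 to 318 TPM in GR WT, with 2 of 4 tested past the test as lower), and of 8 sebocyte genes (42.7 to 80.6 TPM in GR KO and 105 to 136 TPM in GR WT, with 2 of 7). Dendritic cell genes overlapped between genotypes (6.64 to 10.5 TPM in GR KO and 4.26 to 14.2 TPM in GR WT). So did the sum of Cd8a and Cd8b1 (13.96 to 21.2 TPM in GR KO and 5.94 to 16.7 TPM in GR WT). These were the only 2 symbols found of a list of 5 CD8 and gamma delta T cell genes. It held no value for a gamma delta T cell gene, so those cells were not examined. In bulk RNA of this kind, fewer cells of a type and less RNA per cell cannot be told apart.

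Treg cells and HFSC carried largely different integrins. In Treg cells the alpha chain pool was dominated by Itgae, whose product alphaE pairs with beta7, at 58.97% to 72.3% of all alpha chain TPM, followed by Itgal at 15.3% to 19.4%. Itgae stood at 448, 469, 406, 449.9 and 496 TPM in the GR KO libraries, against 372, 441 and 415 TPM in the GR WT libraries. In HFSC it reached at most 0.357 TPM, with 20 tags over all 6 libraries. The partner gene Itgb7 was at 182 to 248 TPM in Treg cells and at 0 to 0.574 TPM in HFSC. Itgal, which encodes the alpha chain of the ICAM1 receptor, was at 93.2 to 136 TPM in Treg cells, with no more than 0.196 TPM in any HFSC library. Its partner Itgb2 was at 147 to 197 TPM in Treg cells and at 0 to 0.724 TPM in HFSC. Itgae, Itgb7, Itgal and Itgb2 thus averaged near or under the level of 3 tags in HFSC. That level is 0.217 to 0.362 TPM for Itgb2 and covers counting error only. Itga4, another leukocyte integrin chain, had 109 tags over all 6 HFSC libraries.

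The alphav chain and its partners also set the cell types apart. Itgav was at 57.6 TPM on average in Treg libraries (35.6 to 93.3) and 17.1 TPM in HFSC libraries (11.1 to 22.0). Of its partner chains, Itgb8 averaged 41.8 TPM in Treg cells and 17.9 TPM in HFSC, and Itgb3 averaged 42.6 TPM in Treg cells with 2 tags in all of HFSC. Itgb6, the beta chain of an epithelial TGF-beta activating integrin, was at 15.6 to 35.0 TPM in HFSC and at 2 tags over all 8 Treg libraries. Itgb5, the chain of a vitronectin receptor, averaged 5.99 TPM in Treg cells and 37.2 TPM in HFSC. Of Itgb6 and Itgb8, the beta chains best known for activating TGF-beta, Itgb8 alone averaged at least 10 TPM in Treg cells, and both did in HFSC.

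HFSC carried the keratinocyte set. Itga6, part of the sort gate and so no finding, was at 109, 104 and 115 TPM in GR KO libraries and at 82.7, 118 and 115 TPM in GR WT libraries, which is 42.6% to 44.4% of all alpha chain TPM. In Treg libraries it was at 12.7 to 18.5 TPM. Itgb4, whose product pairs with alpha6 in hemidesmosomes, was at 131, 152 and 130.4 TPM in GR KO and at 136, 153 and 164 TPM in GR WT HFSC. Itga3, the alpha chain of the main laminin receptor of migrating keratinocytes, averaged 9.06 TPM in Treg cells and 87.4 TPM in HFSC. Itgb1, the common beta chain that pairs with many alpha chains, overlapped between the cell types, at 74.0 to 160.0 TPM in Treg cells and 122 to 158 TPM in HFSC. Itga3 and Lamb3 are listed with a different transcript in each table, a difference in length that TPM takes into account.

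**Figure D1:**
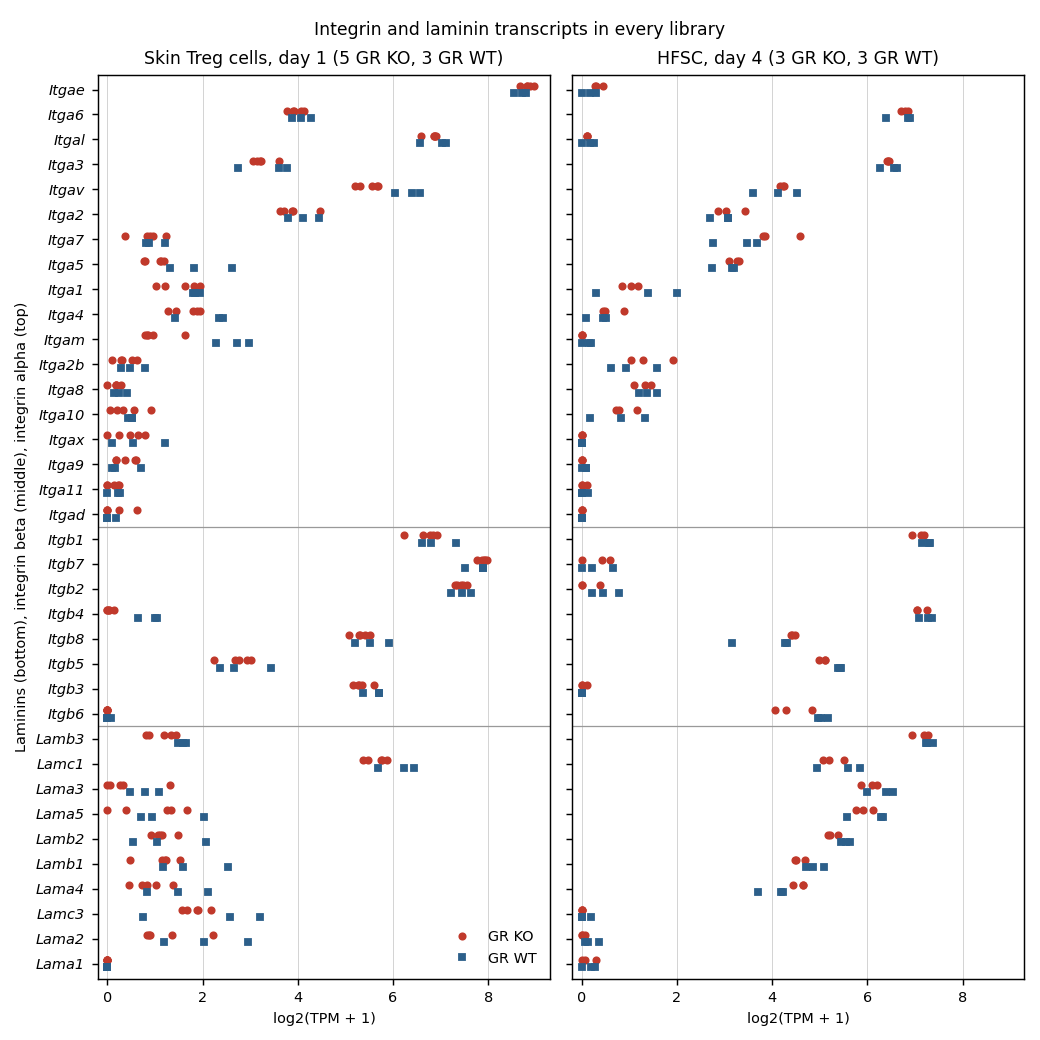
Level of 36 of the 37 integrin and laminin genes on the log2(TPM + 1) axis, with 1 point per library (red circles GR KO, blue squares GR WT) in Treg cells on the left and HFSC on the right. Itgae, Itgal, Itgb2, Itgb7 and Itgb3 lie far right in Treg cells and at or near 0 in HFSC. Itgb4, Itgb6, Lamb3, Lama3 and Lama5 lie further right in HFSC than in Treg cells, where Lamb3 is at 0.747 to 2.14 TPM and Lama5 at 0 to 3.06 TPM.

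Laminin transcripts were a feature of HFSC. Summed over the 11 chains, laminins reached between 52.3 and 108 TPM in Treg cells, where HFSC had 408 to 579.6 TPM. Lamb3, the beta chain of laminin-332, was the most abundant laminin transcript of HFSC, at 146, 153 and 122 TPM in GR KO and 149, 166 and 151 TPM in GR WT. Lama3, the alpha chain of the same trimer, averaged 72.6 TPM. Lama5, the alpha chain of laminin-511, averaged 63.8 TPM in HFSC, with Lamb2 at 41.7, Lamc1 at 41.1, Lamb1 at 25.7 and Lama4 at 19.3 TPM. The range of Lamb3 over the libraries lay wholly above that of Lama3. From Lama3 down to Lama4 in this order, the ranges of each neighbouring pair overlapped. Within every single library, Lama5 still stood above Lamb2, and Lamc1 above Lamb1. Lama1, Lama2 and Lamc3 stayed at or below 0.285 TPM in every HFSC library.

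In Treg libraries the picture was a single abundant chain. Lamc1, the gamma chain shared by most laminins, was at 40.5, 53.6, 52.5, 57.7 and 43.3 TPM in GR KO libraries, against 50.2, 85.2 and 73.7 TPM in GR WT libraries, which is 68.1% to 90.8% of all laminin TPM there. Every other laminin chain averaged at most 3.36 TPM in Treg cells, and Lama1 was at 0 in all 8 libraries, which allows at most 0.0292 to 0.0437 TPM. No alpha or beta partner of Lamc1 averaged 10 TPM in Treg libraries, so none of the 11 trimers considered had all chains at that level. In HFSC, 7 of the 11 trimers had. The other 4 were those built on Lama1 or Lama2.

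Set against each other without a test, since the tables were normalized separately, 12 of the 37 genes were higher in every Treg library than in every HFSC library, and 15 were lower. The other 10 overlapped, 6 of them averaging under 1 TPM in both cell types. Among the 31 genes that averaged at least 1 TPM in either cell type, that was 38.7% higher and 48.4% lower. Over all 13710 genes with such a level, 19.9% were higher and 42.7% lower. Of 24 known integrin pairs, 7 had both chains at an average of at least 10 TPM in Treg cells and 8 in HFSC, of which 3 were shared: alpha6beta1, alphavbeta1 and alphavbeta8.

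The Treg integrins can be read beside the ligands that HFSC transcribe. The Treg cells were collected 1 day and the HFSC 4 days after depilation, so the levels are not from the same time. Cdh1, which encodes E-cadherin, the ligand of alphaEbeta7, averaged 0.663 TPM in Treg libraries and 219 TPM in HFSC libraries. Icam1, the ligand of alphaLbeta2, was present on both sides, at 224 TPM in Treg cells and 83.8 TPM in HFSC. Vcam1, a ligand of alpha4 integrins, was at 0 in all HFSC libraries, and Itga4 itself averaged 2.67 TPM in Treg cells. For alphavbeta8, the latent ligand genes differed in kind between the cells. Tgfb1 averaged 112 TPM in Treg cells and 35.5 TPM in HFSC, whereas Tgfb3 averaged 1.14 TPM in Treg cells and 62.3 TPM in HFSC. Lrrc32, which encodes the GARP protein that holds latent TGF-beta on Treg cells, averaged 41.9 TPM in Treg cells and 0.856 TPM in HFSC. Of the laminin receptor chains that pair with beta1, Itga6 averaged 15.1 TPM and Itga3 9.06 TPM in Treg cells, while Itgb4 averaged 0.346 TPM. Npnt, whose product nephronectin is the bulge ligand of alpha8beta1, averaged 158 TPM in HFSC, and Itga8 averaged 0.151 TPM in Treg cells and 1.55 TPM in HFSC.

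In Treg cells lacking the glucocorticoid receptor, Itgav was the integrin that changed among the abundant ones. It stood at 35.6, 49.3, 38.4, 50.5 and 46.2 TPM in the GR KO libraries, against 64.5, 93.3 and 83.1 TPM in the GR WT libraries. Every GR KO library lay below every GR WT library. The GR KO mean of 44.0 ± 6.65 TPM was 54.8% of the GR WT mean of 80.3 ± 14.6 TPM (SD, n = 5 and 3), a difference of -0.85 in log2 (SE 0.15, limma adjusted p = 0.0198). Fold changes here are on the log2(TPM + 1) scale, and adjusted p-values cover all 11579 genes tested. The adjusted p was 0.0684 without GR WT replicate 2 and 0.0952 without GR WT replicate 3.

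The partner chains of alphav did not pass in the same libraries. Itgb8 stood at 38.4, 41.5, 32.8, 44.4 and 37.7 TPM in GR KO, against 36.0, 59.0 and 44.7 TPM in GR WT, and the groups overlapped (log2 -0.23, SE 0.16, limma adjusted p = 0.551). Its value was -0.048 without GR WT replicate 2 and -0.40 without GR WT replicate 1. Itgb3 stood at 37.8, 34.9, 37.6, 47.8 and 39.96 TPM in GR KO, against 40.1, 51.5 and 51.5 TPM in GR WT (log2 -0.26, SE 0.13, limma adjusted p = 0.414). Itgb1 stood at 114, 109, 74.0, 119.6 and 97.6 TPM in GR KO, against 110.4, 96.7 and 160.0 TPM in GR WT (log2 -0.24, SE 0.18, limma adjusted p = 0.603), and its value was -0.028 without GR WT replicate 3, -0.12 without GR KO replicate 3 and -0.39 without GR WT replicate 2. None of these differences passed, and whether Itgav differed from its partners in its change was not tested.

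Itgam, the alpha chain of a myeloid integrin also called Mac-1, fell as well, at a low level. It stood at 0.784, 0.734, 0.808, 0.942 and 2.10 TPM in GR KO libraries, against 5.60, 3.84 and 6.85 TPM in GR WT libraries, with no overlap. Its difference was -1.64 in log2 (SE 0.29, limma adjusted p = 0.0164), on an average of 48.4 tags per GR KO library and 220.0 per GR WT library. With a pseudocount of 5 TPM the value was -0.77, and it was -2.32 with voom on recovered tags. Its adjusted p was 0.0752 without GR WT replicate 1 and 0.0873 without GR WT replicate 3.

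Itgav and Itgam are shown with the 250 bases before their start sites because they were the members that fell together. The bases come from RefSeq, build GRCm38.p6, which is mm10, on the plus strand at chr2:83724147-83724396 for Itgav and chr7:128062390-128062639 for Itgam. Capitals mark GAGGAA on either strand, the core of the box bound by PU.1, a transcription factor of myeloid cells.
Itgav: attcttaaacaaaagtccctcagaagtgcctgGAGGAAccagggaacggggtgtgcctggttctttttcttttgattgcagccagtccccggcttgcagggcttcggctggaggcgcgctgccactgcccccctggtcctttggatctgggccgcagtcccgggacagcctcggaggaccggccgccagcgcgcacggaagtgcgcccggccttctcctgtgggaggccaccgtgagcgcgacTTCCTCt
Itgam: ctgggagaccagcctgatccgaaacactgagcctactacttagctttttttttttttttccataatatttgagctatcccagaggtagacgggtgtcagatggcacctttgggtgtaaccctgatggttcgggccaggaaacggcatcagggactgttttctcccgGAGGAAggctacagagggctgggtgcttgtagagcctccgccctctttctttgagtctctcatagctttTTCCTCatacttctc
Each window held 2 matches to GAGGAA, which occurs in 23.1% of 27025 such windows over all genes with a promoter entry and in 11 of the 20 integrin and laminin genes whose start matched an entry within 5 bases. Neither window held AGAACA, the glucocorticoid response element half-site (either strand), which 16.2% of all windows hold. GGGCGG, the Sp1 box, which 32.9% of all windows and 8 of the 20 members hold, occurred 1 time in the Itgam window and not in that of Itgav. Letters were searched on both strands, and matches of different motifs did not overlap in these windows. A match is a description of the sequence and not a binding site.

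Transcripts of other cells moved with the genotype in these libraries. Of 10 macrophage and monocyte genes, all were tested and 5 fell, with a summed level of 63.6 to 167 TPM in GR KO and 209.5 to 369 TPM in GR WT, and none was at 0 in all libraries. Of 6 neutrophil genes, 3 were tested and 2 fell, with a summed level of 0 to 20.8 TPM in GR KO and 75.7 to 326 TPM in GR WT. Itgam had the same order over the libraries as the macrophage sum, apart from GR KO replicate 4. For Itgav it did not: GR WT replicate 2 had the highest Itgav and the lowest macrophage sum of the GR WT libraries, and GR KO replicate 4 had the highest Itgav of the GR KO libraries with the lowest sum of all. The part of these cells in either result was not tested.

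**Figure D2:**
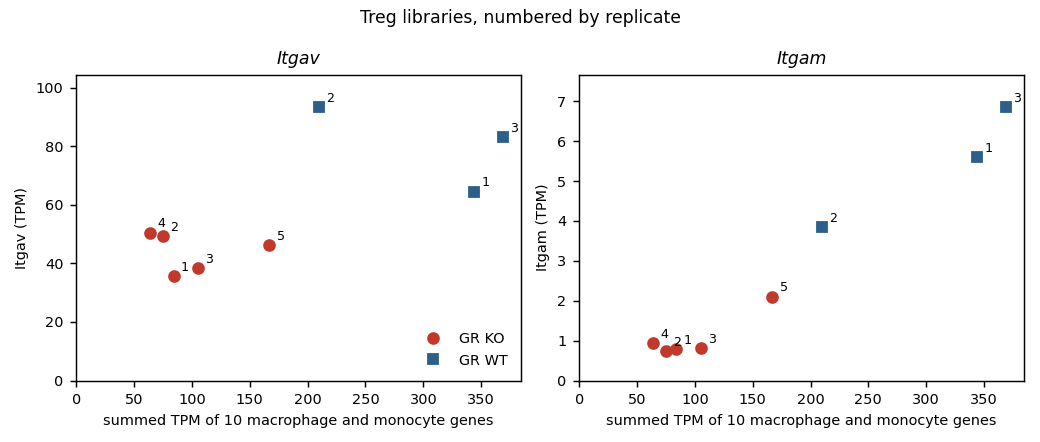
Itgav (left) and Itgam (right) in TPM against the summed TPM of 10 macrophage and monocyte genes in each Treg library, numbered by replicate (red circles GR KO, blue squares GR WT). Itgam is at 3.84 to 6.85 TPM in the GR WT libraries with sums of 209.5 to 369 TPM, while Itgav has no single order along the sum within a genotype.

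Of the 37 genes, 25 averaged at least 1 TPM in Treg libraries and were tested, and 2 passed, both lower in GR KO. Over all genes, 1.51% passed, 1.31% as lower and 0.199% as higher. At an unadjusted limma p under 0.05 there were 4 of 25 members, all lower (Itgav, Itgam, Itga5 and Lamc1). Of all genes tested, 8.93% were lower, 5.15% higher and 14.1% either at that level. The share without overlap between the groups was 4 of 25, all lower in GR KO, where 5.1% of all genes tested lay wholly lower, 3.42% wholly higher and 8.52% apart in either direction. Of the tested members, 23 had a fold change below 0 (55.8% of all genes), and their median log2 fold change was -0.29 against -0.04 over all genes. The other genes without overlap were Itga5, the alpha chain of the fibronectin receptor, and Lamb3. Itga5 stood at 0.722, 1.20, 1.14, 1.28 and 0.694 TPM in GR KO, against 2.55, 1.48 and 5.14 TPM in GR WT (log2 -0.93, SE 0.32, limma adjusted p = 0.234), with a value of -0.58 without GR WT replicate 3. Lamb3 stood at 0.822, 1.51, 1.71, 0.747 and 1.29 TPM in GR KO, against 2.14, 1.79 and 2 TPM in GR WT (log2 -0.44, SE 0.27, limma adjusted p = 0.494). Neither passed. Lamb3 averaged 148 TPM in HFSC. In Treg libraries, basal keratinocyte genes summed to 60.3 to 164 TPM in GR KO and 455 to 732 TPM in GR WT. The part of RNA from other cells in the Lamb3 difference and in the fold changes below 0 was not tested.

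Unlike Itgam, the abundant leukocyte integrin chains Itgae, Itgb7, Itgal and Itgb2 did not pass by genotype. Of 6 Treg marker genes in the same libraries all were tested and 1 fell, Il2ra, named after its values were seen (330.1 ± 10.95 TPM in GR KO and 485 ± 33.4 TPM in GR WT, limma adjusted p = 0.0058), with a summed level of 4545 to 7627 TPM in GR KO and 6930 to 7653 TPM in GR WT. Itgae was at 454 ± 32.9 TPM in GR KO and 409 ± 35.0 TPM in GR WT (log2 0.15, SE 0.09, limma adjusted p = 0.504). Itgb7 was at 232, 238, 241, 216 and 248 TPM in GR KO and at 182, 235 and 234 TPM in GR WT (limma adjusted p = 0.64). Itgae and Itgb7 were the tested members with a fold change above 0, and both overlapped between genotypes. Itgal was at 95.0, 118, 115, 116 and 115 TPM in GR KO and at 93.2, 130.2 and 136 TPM in GR WT (limma adjusted p = 0.825). Itgb2 was at 162, 171, 175, 156 and 186 TPM in GR KO and at 147, 174 and 197 TPM in GR WT (limma adjusted p = 0.965). GR WT replicate 1 was the lowest Treg library for Itgae, Itgal, Itgb2 and Itgb7. Without it the log2 value was 0.083 for Itgae and 0.0005 for Itgb7. For Itgal the value was -0.26, against -0.086 with all libraries, and for Itgb2 it was -0.13, against -0.016. Itga6 was at 12.7, 16.6, 14.02, 15.7 and 13.9 TPM in GR KO and at 13.7, 15.7 and 18.5 TPM in GR WT (log2 -0.12, limma adjusted p = 0.777, and -0.013 without GR WT replicate 3).

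**Figure D3:**
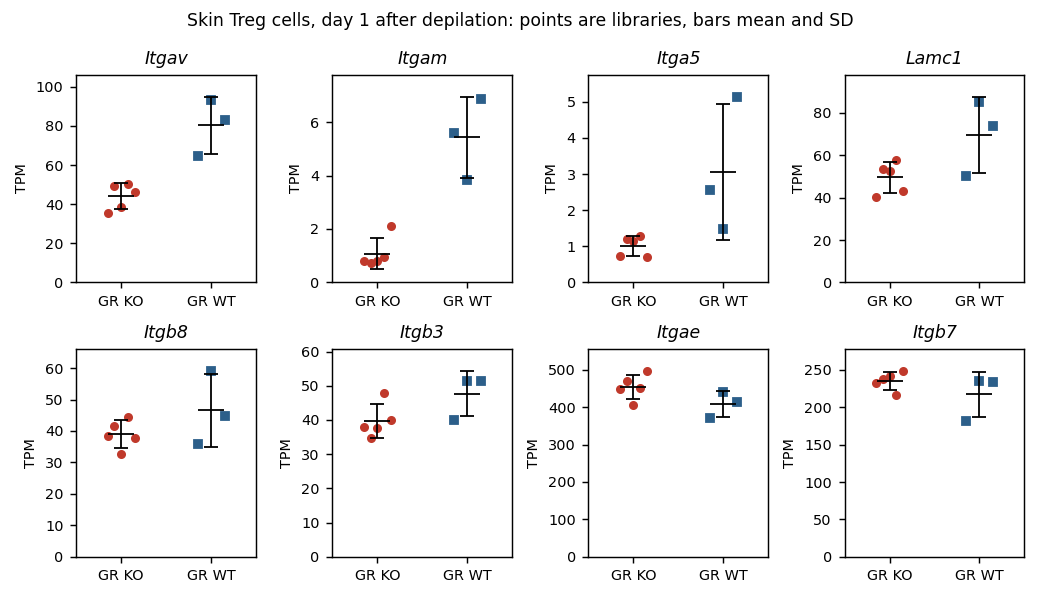
TPM of 8 integrin and laminin genes in Treg libraries, GR KO left (5 points) and GR WT right (3 points), with the mean and SD as bars. Itgav and Itgam lie wholly lower in GR KO, Itga5 lies lower without passing, and Lamc1, Itgb8, Itgb3, Itgae and Itgb7 overlap.

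No laminin gene passed in Treg libraries, and the GR WT libraries differed widely among themselves. Lamc1 had a log2 fold change of -0.46 (SE 0.18, limma adjusted p = 0.274), and GR WT replicate 1 lay within the GR KO range. Without that library the value was -0.68 (limma adjusted p = 0.0838), and it was -0.30 without GR WT replicate 2. Lama2 stood at 0.781, 0.843, 0.873, 3.67 and 1.55 TPM in GR KO, against 3.10, 1.29 and 6.80 TPM in GR WT (limma adjusted p = 0.428). Lamc3 stood at 3.54, 2.67, 2.18, 2.71 and 1.98 TPM in GR KO, against 4.93, 0.691 and 8.18 TPM in GR WT, so the GR WT libraries spanned the whole range (limma adjusted p = 0.796). Lamb1 stood at 1.86, 1.35, 0.396, 1.20 and 1.33 TPM in GR KO, against 2.02, 1.24 and 4.75 TPM in GR WT (limma adjusted p = 0.458). GR WT replicate 3 was the highest library for Lama2, Lamb1 and Lamc3, and without it the log2 value was -0.38 for Lama2, against -0.83 with all libraries, and -0.26 for Lamb1, against -0.64. It also had the highest summed level of 6 fibroblast genes, which was 30.4 to 136 TPM in GR KO and 123 to 264 TPM in GR WT, with 6 tested and 0 past the test. Within GR KO the orders differed: replicate 5 had the highest fibroblast sum (136 TPM) and the lowest Lamc3, and replicate 4, with the highest Lama2, had a fibroblast sum of 75.7 TPM. The part of fibroblast RNA was not tested.

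Itgb4, named after its values were seen, averaged under 1 TPM and so was not among the genes tested. It stood at 0.102, 0.022, 0, 0.031 and 0 TPM in GR KO libraries, against 1.06, 0.555 and 0.999 TPM in GR WT libraries. That is an average of 1.6 tags per GR KO library and 44.7 per GR WT library, and when all genes were tested whatever their level, Itgb4 had a value of -0.85 in log2 (limma adjusted p = 0.0124). Of 10 basal keratinocyte genes all were tested and 8 fell in the same libraries, with a summed level of 60.3 to 164 TPM in GR KO and 455 to 732 TPM in GR WT, and none was at 0 in all libraries. Itgb4 was at 145 TPM on average in HFSC, and the part of keratinocyte RNA in its difference was not tested.

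Genes that work with integrins and laminins were read from lists. Of 20 tested integrin adaptors and activators in Treg cells, 0 rose and 0 fell. Those with the smallest p were Rasgrp2, an activator of Rap1, at 18.1 ± 1.69 TPM in GR KO and 22.2 ± 1.118 TPM in GR WT (limma adjusted p = 0.336), Rap1b, Vcl and Ptk2, with limma adjusted p from 0.302 to 0.344. Of 6 hemidesmosome partners 3 fell: Col17a1 (0.296 ± 0.373 TPM in GR KO and 6.60 ± 2.90 TPM in GR WT, limma adjusted p = 0.0033), Krt5 and Krt14. Dst, Plec and Cd151 did not pass, and Col17a1, Krt5, Krt14 and Dst are also in the keratinocyte list above. Of 11 tested matrix genes 2 fell. Thbs1, whose product thrombospondin 1 is a ligand of alphav integrins and of latent TGF-beta, was at 5.23 ± 1.26 TPM in GR KO and 27.2 ± 10.2 TPM in GR WT (log2 -2.13, SE 0.26, limma adjusted p = 0.0024). Postn, which encodes the alphav ligand periostin, was at 6.99 ± 4.52 TPM in GR KO and 63.9 ± 5.42 TPM in GR WT (log2 -3.21, SE 0.39, limma adjusted p = 0.0024). In HFSC, Thbs1 averaged 179 TPM and Postn 852 TPM. The part of RNA from other cells in the Treg differences of Thbs1 and Postn was not tested. Of 11 tested ligands of leukocyte integrins and latent TGF-beta genes 0 rose and 0 fell.

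In HFSC of GR KO mice no integrin or laminin gene passed. Of the 37 genes 22 averaged at least 1 TPM and were tested, and 0 had a limma adjusted p under 0.05, where 0.176% of 12493 genes did, 0.032% as lower and 0.144% as higher. At an unadjusted limma p under 0.05 there were 7 members, 2 higher and 5 lower, where 7.8% of all genes tested were higher, 8.8% lower and 16.6% either at that level. The groups did not overlap for 8 of the 22, 3 higher and 5 lower in GR KO, where 10.7% of all genes lay wholly higher, 12.8% wholly lower and 23.5% apart in either direction. With voom on recovered tags 1 member passed, Itgb6 (limma adjusted p = 0.0278), where that fit called 483 genes. A fold change below 0 was found for 14 of the 22 and for 52.8% of all genes. The median log2 fold change of the 22 was -0.13, against -0.02 over all genes tested.

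Among the integrins, 3 beta chains that pair with alphav, Itgb5, Itgb6 and Itgb8, lay apart by genotype without passing. Itgb6 stood at 27.5, 15.6 and 18.7 TPM in GR KO HFSC, against 30.1, 35.0 and 31.8 TPM in GR WT HFSC (log2 -0.66, SE 0.20, limma adjusted p = 0.169). GR KO replicate 1 lay close to the GR WT range. Itgb5 stood at 33.4, 33.5 and 30.6 TPM in GR KO, against 40.9, 42.8 and 42.3 TPM in GR WT (log2 -0.36, SE 0.11, limma adjusted p = 0.163). Itgb8 stood at 20.1, 21.5 and 20.5 TPM in GR KO, against 7.92, 18.4 and 18.9 TPM in GR WT (log2 0.52, SE 0.29, limma adjusted p = 0.416). GR WT replicate 1, the shallowest HFSC library, alone was low for Itgb8, and without it the value was 0.14. Itgav itself overlapped, at 17.0, 17.9 and 18.1 TPM in GR KO and at 11.1, 16.5 and 22.0 TPM in GR WT (limma adjusted p = 0.803).

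Itga7, a laminin receptor chain best known from muscle, stood at 13.5, 13.0 and 23.0 TPM in GR KO, against 5.75, 11.8 and 10.1 TPM in GR WT. Its log2 fold change of 0.78 (SE 0.30, limma adjusted p = 0.25) was 0.51 without GR WT replicate 1. The main adhesion chains of the stem cells overlapped between genotypes. Itga6 had a log2 fold change of 0.07 (limma adjusted p = 0.841), with GR WT replicate 1 the lowest library, and of -0.09 without it. Itga3 was at 84.5, 85.3 and 87.3 TPM in GR KO and at 76.3, 98.3 and 92.8 TPM in GR WT (limma adjusted p = 0.87). Itgb4 was at 138 ± 12.4 TPM in GR KO and 151 ± 14.1 TPM in GR WT (SD, n = 3 each, log2 -0.13, limma adjusted p = 0.611, and -0.067 without GR WT replicate 3). Itgb1 was at 144, 138 and 122 TPM in GR KO and at 155, 141 and 158 TPM in GR WT (log2 -0.17, limma adjusted p = 0.462, and -0.099 without GR KO replicate 3).

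**Figure D4:**
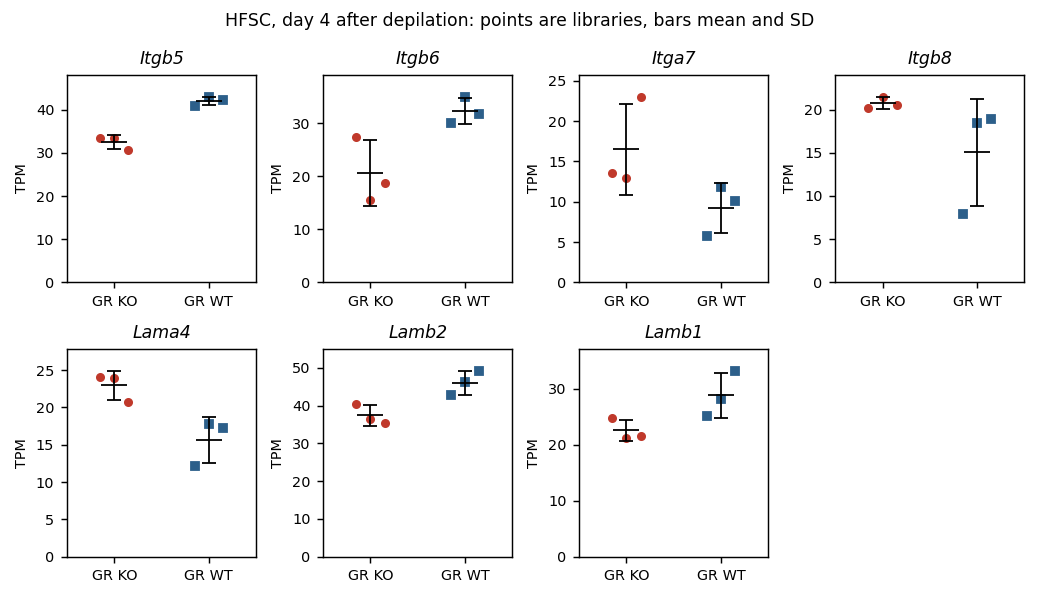
TPM of 7 integrin and laminin genes without overlap between genotypes in HFSC libraries, GR KO left and GR WT right (3 points each), with the mean and SD as bars. Itgb5, Itgb6, Lamb2 and Lamb1 lie lower in GR KO and Itga7, Itgb8 and Lama4 higher, and none passed the test over all genes.

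Among the laminins, Lama4, an alpha chain known from vessel and follicle basement membranes, lay higher in GR KO. It stood at 24.1, 24.0 and 20.7 TPM, against 12.1, 17.7 and 17.2 TPM in GR WT (log2 0.54, SE 0.18, limma adjusted p = 0.19), and its value was 0.37 without GR WT replicate 1. The beta chains Lamb2 and Lamb1 lay lower. Lamb2 stood at 40.6, 36.4 and 35.3 TPM in GR KO, against 42.7, 46.1 and 49.0 TPM in GR WT (log2 -0.29, SE 0.12, limma adjusted p = 0.268). Lamb1 stood at 24.7, 21.2 and 21.6 TPM in GR KO, against 25.2, 28.2 and 33.1 TPM in GR WT (log2 -0.34, SE 0.15, limma adjusted p = 0.295). GR KO replicate 1 was the highest GR KO library for all of these, and for Lamb1 it lay within 1 TPM of the lowest GR WT library. Lama3 at 67.3, 72.7 and 57.0 TPM in GR KO overlapped with 63.0, 83.2 and 92.2 TPM in GR WT (limma adjusted p = 0.46). Lama5 at 68.2, 58.7 and 53.3 TPM in GR KO overlapped with 46.4, 76.7 and 79.6 TPM in GR WT (limma adjusted p = 0.784), and Lamb3 overlapped too (limma adjusted p = 0.549). Single libraries moved such small values: Lamb3 was at -0.15 in log2 and at -0.055 without GR KO replicate 3, and Lama3 at -0.26 and at -0.15 without GR WT replicate 3.

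The summed levels of some marker lists lay apart between genotypes in HFSC, where 23.5% of all single genes tested did too. The summed level of 8 sebocyte genes was 6967 to 8607 TPM in GR KO and 3322 to 4903 TPM in GR WT, with 1 of the 8 past the test as higher and none at 0. The summed level of 10 basal keratinocyte genes was 18677 to 22171 TPM in GR KO and 24427 to 29393 TPM in GR WT, with 0 of 10 past the test. That list includes Krt15, so it does not mark cells other than HFSC. The summed level of 5 melanocyte genes was 3.34 to 3.76 TPM in GR KO and 6.70 to 15.5 TPM in GR WT, with 3 tested and 0 past the test. For 6 Treg genes the sum was 12.8 to 13.4 TPM in GR KO and 5.81 to 11.9 TPM in GR WT. For 5 smooth muscle and pericyte genes it was 1.08 to 2.66 TPM in GR KO and 2.78 to 4.885 TPM in GR WT. Each of these lists had 1 gene tested and 0 past the test. The part of other cells in the integrin and laminin values was not tested. Of the companion lists in HFSC, 0 genes passed among 18 adaptors, 6 hemidesmosome partners, 21 matrix genes and 10 ligands. Those with the smallest p included Col4a2, a collagen IV chain gene (30.1 ± 0.724 TPM in GR KO and 43.3 ± 4.12 TPM in GR WT, limma adjusted p = 0.114), Krt5 (limma adjusted p = 0.145), Cdh1 (196 ± 13.9 TPM in GR KO and 241 ± 8.86 TPM in GR WT, limma adjusted p = 0.181) and Ilk, the integrin-linked kinase gene (68.8 ± 5.34 TPM in GR KO and 84.2 ± 1.45 TPM in GR WT, limma adjusted p = 0.218).

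**Figure D5:**
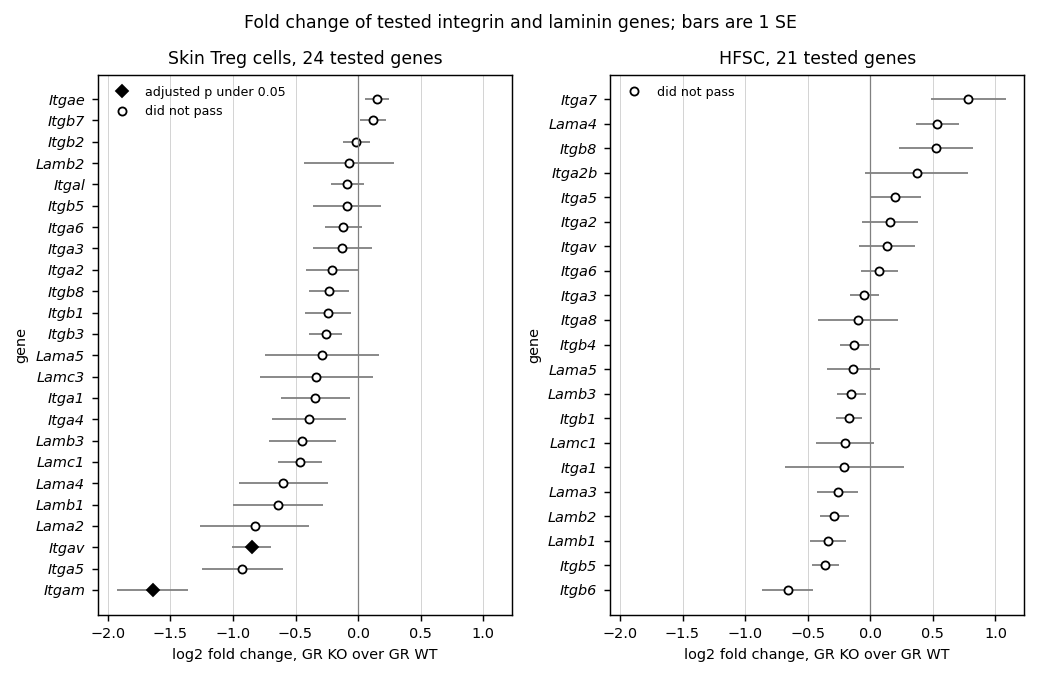
Log2 fold change of GR KO over GR WT, on the log2(TPM + 1) scale with 1 SE, for 24 of the 25 members tested in Treg cells (left) and 21 of the 22 tested in HFSC (right). Filled diamonds mark Itgav (-0.85) and Itgam (-1.64), which passed an adjusted p of 0.05 in Treg cells, and open circles mark genes that did not pass.

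Some members were low in both cell types. In Treg libraries 12 of the 37 genes averaged under 1 TPM, and in HFSC libraries 15 did. These counts include genes abundant in the other cell type, such as Itgb4 and Itgae. Itga9, Itga10, Itga11, Itgad, Itgax and Lama1 averaged under 1 TPM in both. Itgad and Itgax, which encode alpha chains of myeloid integrins, were at 0 in all 6 HFSC libraries, which allows at most 0.157 to 0.262 TPM for Itgad. Of the members between these and the abundant ones, Itga2, a collagen receptor chain, averaged 15.3 TPM in Treg cells and 7.25 TPM in HFSC, and passed the test in neither (limma adjusted p = 0.715 and 0.76). Itga1, another collagen receptor chain, averaged 2.21 TPM in Treg cells and 1.33 TPM in HFSC. Itga5 averaged 1.78 TPM in Treg cells and 7.83 TPM in HFSC. Whether any member responded differently to the genotype in the 2 cell types was not tested.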

How the data were processed

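Sorted cells gave 14 RNA samples, sequenced with a kit that keeps strand (labels' protocols). FastQC, Trim Galore, STAR and HOMER with build mm10 are named in the submitters' processing notes. Their versions and the strand setting in counting are not given here, so reads of overlapping antisense genes may be shared. The authors deposited TPM for each sample, in a table for each cell type that also lists a RefSeq transcript and its length for 24537 symbols. HFSC columns were matched to samples by table, genotype and number. Columns of other samples numbered 0.

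Tags were recovered by multiplying TPM by length: 100% of the low values examined lay within 0.1 tag of a whole number. They gave the depth, the floors of 3 tags and the voom alternative, scaled to total tags. Of the low tag numbers, 74.5% to 82.9% were even, so both mates of a read pair may be counted, and floors then understate the counting error. Genes averaging 1 TPM or more were tested in each table separately by limma (3.58.1, R 4.3.3) after taking log2 of TPM plus a pseudocount of 1. The prior had a trend, p-values were two-sided and adjusted by Benjamini-Hochberg over all these genes, and the threshold was 0.05. The procedure was tested on simulated data. Alternatives were another pseudocount, filter, scaling or prior, voom, a replicate block and each library left out. Library values were given for the markers Itga6, Itgae, Itgb8 and Lamb3, for members past the threshold, for the most abundant integrins and laminins of each table and for members without overlap. List genes were named by smallest p. Members and lists were chosen with earlier results of these data known, and the sebocyte list was added after the values were seen. Counts cover all 37 genes, of which 1 is not reported here by name or value.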

Additional observations from a re-analysis of the deposited data

Results flagged for a closer look

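In the 5 Treg GR KO libraries, 3 of the 16 named genes had a library set apart from the others by more than the 95% critical gap of Dixon's test, which chance gives in about 1 group of 20. Itgal was low in GR KO replicate 1, at 95.0 TPM, with the other libraries at 115 to 118 TPM. Itgam was high in GR KO replicate 5, at 2.10 TPM, the GR KO library with the highest macrophage and monocyte sum (167 TPM). Lama2 was high in GR KO replicate 4, at 3.67 TPM.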

How the results depend on the processing

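The count of integrin and laminin genes past the threshold in Treg cells was 2. It was 3 with no filter on low values, where Itgb4 passed as well. It was 1 with a mean of at least 5 TPM, where Itgam was not tested, and 1 with the replicate block, where Itgam had an adjusted p of 0.0794. It ranged from 0 to 2 with 1 library left out: 1 without GR WT replicate 1 or 2 and 0 without GR WT replicate 3. In HFSC it was 0, and 1 with voom. Over all genes, the Treg count of 175 was 78 with the replicate block and 84 to 186 with 1 library left out. The HFSC count of 22 was 2 with no filter, 48 with a mean of at least 5 TPM, 69 with median ratio scaling, 58 with quantile normalization, 51 with a robust prior, 483 with voom, 66 with the replicate block and 0 to 5 with 1 library left out.

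Whether replicate numbers pair the samples was not settled. Deviations from the group mean in same-numbered libraries correlated at 0.16, 0.09 and -0.10 in Treg cells and 0.02, 0.06 and -0.04 in HFSC. Some libraries correlated best with their own number and others did not. With 3 libraries of each genotype compared, such values cannot exclude a pairing. Signs turned for genes that did not pass. Itgb2 in Treg cells was 0.025 with median ratio scaling and 0.042 with voom. With 1 library left out, the log2 value in Treg cells ran from -0.26 to 0.016 for Itgal, from -0.13 to 0.082 for Itgb2 and from -1.04 to 0.18 for Lamc3. In HFSC it ran from -0.15 to 0.026 for Itga3, from -0.090 to 0.16 for Itga6, from -0.11 to 0.35 for Itgav and from -0.38 to 0.0018 for Lama5. The causes were not tested. The 12 members higher and 15 lower in Treg than in HFSC were 12 and 15 with rescaled tables and 13 and 15 in GR WT libraries alone.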

Other observations

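The cytoplasmic partners of integrins differed between the cell types as well, a description with no test of genes picked from a list after their levels were seen. Fermt3, which encodes the blood cell kindlin that activates leukocyte integrins, averaged 94.0 TPM in Treg libraries and 0.18 TPM in HFSC libraries. Fermt1, the epithelial kindlin gene, averaged 0.122 TPM in Treg cells and 31.9 TPM in HFSC. The parvins followed the same division, with Parvg at 42.8 TPM in Treg cells and 0.065 TPM in HFSC, and Parva at 1.70 TPM in Treg cells and 26.4 TPM in HFSC. Rasgrp2 and Apbb1ip, which act in Rap1 signalling to integrins, averaged 19.6 and 51.9 TPM in Treg cells and 0.034 and 0.54 TPM in HFSC. Ilk, Lims1 and Tln1 were shared, at 72.0, 28.6 and 65.9 TPM in Treg cells and 76.5, 23.5 and 50.4 TPM in HFSC. The focal adhesion kinases divided too, with Ptk2b at 95.8 TPM in Treg cells and 16.7 TPM in HFSC, and Ptk2 at 1.34 TPM in Treg cells and 27.1 TPM in HFSC.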
